A study of Homo sapiens with 4 samples.

Results

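Sense intronic transcripts are non-coding RNAs that the annotation places inside an intron of another gene, on the same strand as that gene. In these RNA-seq libraries, 120 of the 894 genes of the class sense_intronic had a summed raw count of 40 or more over the 4 libraries, out of 58735 genes in the table. These 120 transcripts are described here in shSPTLC2 cells against shCON cells, each beside the protein-coding gene that contains it on the same strand, called its host. The transcripts were chosen by their summed counts over all libraries and not by the difference between groups. Any count at all was found for 594 of the 894.

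Hey-A8 is an established human ovarian carcinoma cell line. The shSPTLC2 group holds 2 libraries of cells carrying a short hairpin labelled as directed at SPTLC2, and the shCON group holds 2 libraries of the same line with a control hairpin. Titles and design describe the knockdown as stable, while the treatment protocol describes transient transfection of hairpins against another gene, ZDHHC15, with harvest at 36 h. Both genes are reported below and the groups follow the titles. No label says that the libraries of a group are separate cultures, so every p-value measures only the spread between these libraries, which may be technical.

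An intron is copied into RNA with the rest of the gene, is cut out by the spliceosome as a lariat, and is normally debranched and degraded in the nucleus, in part by the RNA exosome. RNA read inside an intron can therefore come from the host's unspliced RNA, from an excised intron, from a host transcript that ends early at an intronic polyadenylation site, or from a transcript with its own start. Gene-level counts do not separate these sources. Neither the program that counted the reads nor its use of strand is stated in the labels or the files, so reads from both strands of a locus cannot be told apart either.

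The targeted gene and the libraries were examined first. SPTLC2, a catalytic subunit of serine palmitoyltransferase, had 39.9 and 43.1 CPM (counts scaled to library size by TMM) in the shSPTLC2 libraries, against 58.7 and 60.7 CPM in the shCON libraries. edgeR called it lower (log2 fold change -0.52 ± 0.12 (SE), adjusted p = 0.0063). The call ended without shSPTLC2 replicate 1 and without shSPTLC2 replicate 2. No read of ZDHHC15 was counted in any library; a count of 0 leaves room for 3 counts, which equal at most 0.206 CPM. Library totals ran from 14464784 to 15084966 counts. Of 8 ovarian carcinoma markers, PAX8, WT1, KRT7, KRT8 and KRT18 averaged over 1 CPM, MUC16 and EPCAM lay below it and CDH1 was at 0, while the mesenchymal markers VIM and CDH2 were present. The 3 leukocyte markers summed to 0.136 CPM or less in every library. The 3 endothelial markers summed to 110 and 132 CPM in the shSPTLC2 libraries and 60.2 and 58.6 CPM in the shCON libraries, nearly all of it CDH5. The other 2 went the opposite way, PECAM1 called lower (0.408 and 0.782 CPM in shSPTLC2 libraries, against 2.09 and 1.85 CPM in shCON libraries) and VWF at a log2 fold change of -0.61 ± 0.48, not called. Counts of mitochondrial genes were 10.1% and 8.56% of the shSPTLC2 libraries and 5.46% and 6.39% of the shCON libraries. The part of these differences in the results was not tested, and fewer cells with a transcript cannot be told apart from less of it per cell.

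The 120 transcripts were rare. Their mean level ran from 0.672 to 18.3 CPM with a median of 1.39, and 110 of them lay under 5 CPM. None was at 0 in any library. Summed counts over the 4 libraries had a median of 82.5 and a highest value of 1091, and 44 transcripts reached 100. The 12 most abundant transcripts held 35.7% of their summed CPM. At the threshold of 40, AC139768.1 had 5 and 12 counts in the shSPTLC2 libraries and 7 and 16 in the shCON libraries, and AC139100.2 (9 and 9 counts in shSPTLC2, 14 and 8 in shCON) and AC023043.4 (7 and 8 in shSPTLC2, 18 and 7 in shCON) had the same sum. Just below it, INE1 had 10 and 11 counts in shSPTLC2 libraries and 8 and 10 in shCON libraries, AC005911.1 had 11 and 7 against 10 and 10, and AC138207.4 had 10 and 7 against 10 and 11.

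A protein-coding host was found for 111 transcripts, and 9 had none. There were 99 distinct hosts, because 10 hosts contained 2 of the transcripts each and KLC1 contained 3, so 23 transcripts share a host and are not independent of each other. Where a transcript lay in several genes, as 6 did, the shortest was used. The transcripts covered 238 to 13454 bases of exon (median 797), 74 of them in a single exon block. Their midpoints lay 2.99% to 97.3% along the host with a median of 57.6%, 65 past its middle and 46 before it. Exons of another gene overlapped 9 transcripts on the same strand and 11 on the opposite strand, while 102 overlapped none, so the counts of the overlapping ones are uncertain. The largest numbers lay on chromosomes 19 (16 transcripts), 12 (11), 16 (10) and 8 (10).

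Per length, most transcripts lay below their host. The level in FPKM (reads scaled by gene length and library size) was a median of 20.7% of the host's among the 108 transcripts whose host also had 40 counts, over a range of 0.602% to 616%, and it exceeded the host's in 22. AL049840.4, inside the kinesin light chain gene KLC1, was the highest at 22.4 FPKM and 616% of KLC1, and ANKRD10-IT1 followed at 13.5 FPKM and 75.5% of ANKRD10. All these percentages depend on the length given to each gene. In summed counts AL049840.4 had 1091, beside 4200 for KLC1. ASAP1-IT2, inside the Arf GTPase-activating gene ASAP1, stood at 1.17% of its host.

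Together the transcripts took up more of the shSPTLC2 libraries. Their summed level was 329 and 306 CPM in the shSPTLC2 libraries, against 239 and 247 CPM in the shCON libraries. Both shSPTLC2 libraries lay above both shCON libraries, and the group means were 317 ± 16.0 and 243 ± 5.54 CPM (SD, n = 2 each), a ratio of 1.31. As shares of all counts these were 0.0334% (95% exact binomial interval 0.0325% to 0.0344%) and 0.0311% (0.0302% to 0.0320%) in shSPTLC2 libraries, and 0.0236% (0.0229% to 0.0244%) and 0.0239% (0.0232% to 0.0247%) in shCON libraries. The intervals cover counting error only. With 2 libraries in each group, a two-sided exact permutation test gave p = 0.333, which is the smallest value it can give. Without AL049840.4 the sums were 304 and 287 CPM in the shSPTLC2 libraries and 222 and 234 CPM in the shCON libraries.

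The summed level of the 99 hosts overlapped between the groups. It was 9375 and 9565 CPM in the shSPTLC2 libraries, against 9743 and 9397 CPM in the shCON libraries, with a ratio of means of 0.990 (exact permutation p = 0.667). The transcripts' counts equalled 3.51% and 3.20% of the hosts' counts in shSPTLC2 libraries and 2.45% and 2.63% in shCON libraries. Other non-coding classes also took larger shares of the shSPTLC2 libraries, with antisense genes at 0.346% and 0.334% against 0.288% and 0.325%, and lincRNA genes at 0.510% and 0.503% against 0.398% and 0.472%.

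**Figure D1:**
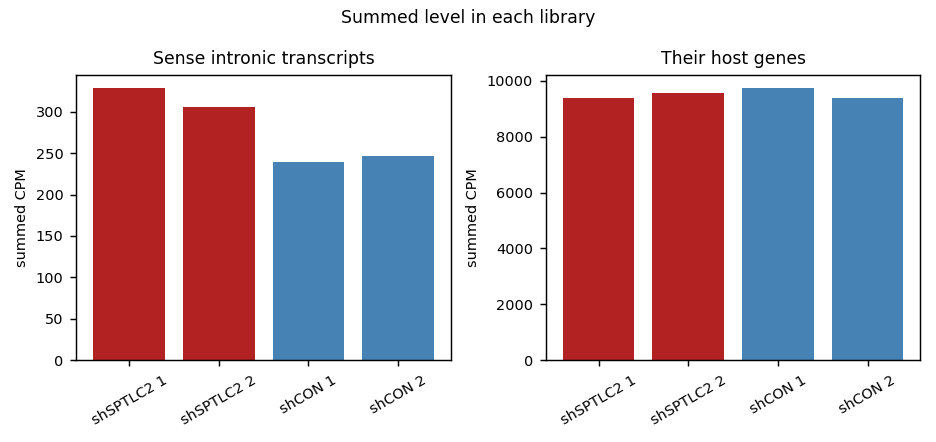
Summed level in CPM of the 120 sense intronic transcripts and of their 99 hosts in each library, with shSPTLC2 libraries to the left of shCON libraries; each bar is 1 library. The transcripts sum to 329 and 306 CPM in shSPTLC2 libraries and 239 and 247 CPM in shCON libraries, while the hosts overlap between the groups.

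Single transcripts were then tested in a fit over the whole table. edgeR tested 117 of the 120 and left out AC135050.5, AC139100.2 and AC023043.4, which did not pass the filter on low counts. That filter was met in every library by 76 transcripts, in both shSPTLC2 libraries and at most 1 shCON library by 27, and in both shCON libraries and at most 1 shSPTLC2 library by 8. Transcripts that passed through a single group lean towards that group, so the counts and medians over the 117 are descriptions. Among them 14 were called higher in shSPTLC2 cells (11.97%), none lower, and 103 were not called at an adjusted p under 0.05. Of all 15313 genes tested, 10.4% were called higher and 9.00% lower, so the share called higher is near the background. No transcript was lower at an unadjusted p under 0.05 in edgeR or in DESeq2 (0 each), while 23 were higher in edgeR. The share of all genes at that unadjusted threshold is not given here, so these counts are not read as a result about the transcripts. Without a filter on low counts all 120 could be tested, with 15 higher and 0 lower.

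The median log2 fold change of the 117 was 0.26, beside 0.005 over all genes tested, and 81 (69.2%) lay above 0, beside 50.5% of all genes. Values ran from -0.97 to 2.09, with a median SE of 0.45 against 0.15 over all genes. Among the 7009 other genes in the same range of summed counts, 9.23% were called higher and 5.18% lower, the median was 0.09, and 56.4% lay above 0. The 44 transcripts with 100 counts or more held 10 of the 14 calls and had a median of 0.29, and the 73 tested below 100 counts held the other 4 and had a median of 0.21. For 60 of the 120 transcripts the levels were separated between the groups, with 47 higher and 13 lower in shSPTLC2 libraries. Over all genes tested, 31.3% did not overlap in the higher direction and 30.2% in the lower.

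**Figure D2:**
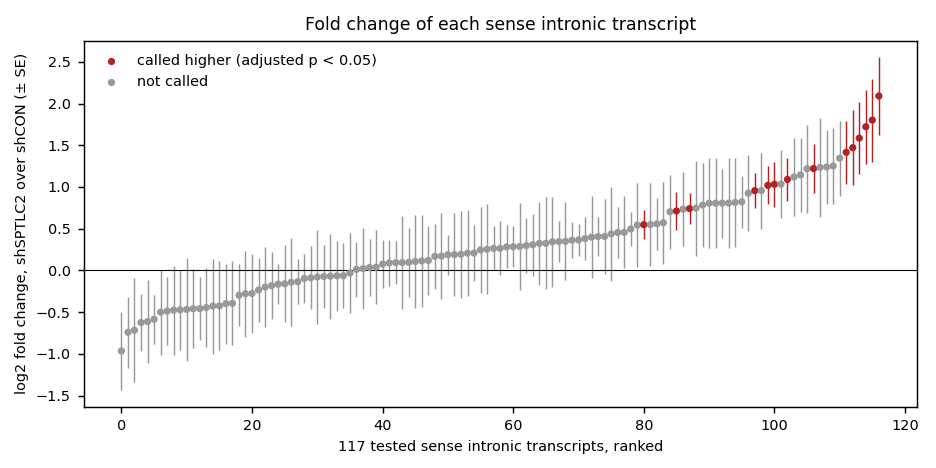
Log2 fold change (shSPTLC2 over shCON, edgeR) of the 117 tested sense intronic transcripts in rank order, with vertical lines of ± 1 SE and red points for the 14 called. The points run from -0.97 to 2.09 and 81 lie above 0.

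Other classes with 40 counts or more gave these values in the same fit. Among 722 antisense genes 43 were higher and 22 lower, with a median log2 fold change of 0.10. Among 532 lincRNA genes 44 were higher and 32 lower, with a median of 0.11. The 43 sense overlapping genes, which contain a coding gene within an intron of theirs, had 2 higher and 1 lower and a median of 0.18. Of 392 processed pseudogenes 10 were higher and 30 lower, with a median of -0.12. Of 12437 protein-coding genes 1375 were higher and 1273 lower, with a median of -0.01. The class processed_transcript had 19 higher and 5 lower of 140 (median 0.19), and the class TEC 11 higher and 1 lower of 123 (0.17). The share above 0 was 69.8% for sense overlapping genes, beside 69.2% of the 117 transcripts. It was 61.0% for TEC, 60.7% for processed_transcript, 57.8% for antisense, 57.0% for lincRNA, 48.9% for protein-coding genes and 41.6% for processed pseudogenes.

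Among the 12 most abundant transcripts, 5 were called higher, beside 10.4% of all genes tested. Abundant transcripts have smaller errors, with a median SE of 0.29 at 100 counts or more and 0.49 below 100 counts. AL049840.4 (hg38 chromosome 14, 103696353 to 103697163, plus strand) had 24.5 and 19.1 CPM in shSPTLC2 libraries, against 17.3 and 12.4 CPM in shCON libraries. The groups did not overlap, and it changed by 0.55 ± 0.18 on the log2 scale (SE; adjusted p = 0.041, edgeR). Its host KLC1, a subunit of the motor that carries cargo along microtubules, had 70.8 and 70.0 CPM in shSPTLC2 libraries and 70.0 and 71.9 CPM in shCON libraries. ANKRD10-IT1 (chromosome 13, 110894639 to 110899172, minus strand) had 14.7 and 12.6 CPM in shSPTLC2 libraries, against 7.55 and 8.79 CPM in shCON libraries, and changed by 0.74 ± 0.18 (adjusted p = 0.010, edgeR). Its host moved with it: ANKRD10 had 110 and 97.9 CPM in shSPTLC2 libraries, against 61.4 and 60.7 CPM in shCON libraries, with a log2 fold change of 0.77 ± 0.11.

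MIR600HG and Z83843.1 have no protein-coding host. MIR600HG, annotated as the host transcript of the microRNA miR-600 (chromosome 9, 123109494 to 123115477, minus strand), had 10.0 and 13.5 CPM in shSPTLC2 libraries, against 6.27 and 5.84 CPM in shCON libraries, a log2 fold change of 0.96 ± 0.21 (adjusted p = 0.0051, edgeR). It shares 352 bases with same-strand exons, and the overlapping gene STRBP was not called, at 0.05 ± 0.12. The gene of the microRNA itself, MIR600, was at 0 in every library. It overlaps MIR600HG on the same strand, and how shared reads were counted is not stated, so this 0 does not measure the microRNA. Z83843.1 lies inside FTX, a long non-coding RNA gene of the X-inactivation centre (chromosome X, 74209976 to 74213660, minus strand), and had 13.1 and 8.93 CPM in shSPTLC2 libraries, against 4.86 and 5.97 CPM in shCON libraries. It rose by 1.02 ± 0.23 (adjusted p = 0.0064, edgeR) and FTX by 0.88 ± 0.13 on the log2 scale.

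AF131215.5 and AF131215.6 lie close together in an intron of XKR6 on chromosome 8 and were both called higher. AF131215.5 had 7.62 and 8.21 CPM in shSPTLC2 libraries, against 5.60 and 4.05 CPM in shCON libraries, and changed by 0.71 ± 0.23 (adjusted p = 0.041, edgeR). AF131215.6 had 5.44 and 4.89 CPM in shSPTLC2 libraries, against 2.70 and 1.72 CPM in shCON libraries, and changed by 1.22 ± 0.30 (adjusted p = 0.0099). XKR6, with a log2 fold change of 0.03 ± 0.24, had 4.83 and 6.84 CPM in shSPTLC2 libraries and 6.00 and 5.42 CPM in shCON libraries, overlapping ranges.

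The other 7 of the most abundant transcripts were not called in the fit of all 4 libraries. AC022150.4 had 11.3 and 9.58 CPM in shSPTLC2 libraries and 5.87 and 9.88 CPM in shCON libraries, overlapping ranges with a log2 fold change of 0.41 ± 0.23, but without shCON replicate 2 it was called higher, at 0.82. Its host, the zinc finger gene ZNF83, was called higher, at 0.64 ± 0.14. GABPB1-IT1, inside the gene of a subunit of the transcription factor GABP, had 8.91 and 9.84 CPM in shSPTLC2 libraries, against 7.49 and 7.07 CPM in shCON libraries (0.36 ± 0.20). AC135050.6, inside the histone acetyltransferase gene KAT8, had 8.50 and 9.06 CPM in shSPTLC2 libraries, against 6.81 and 5.63 CPM in shCON libraries (0.50 ± 0.21). For these last transcripts the groups did not overlap, yet the difference did not pass the test. AC127502.2 (0.36 ± 0.22), AC083799.1 in TMCC1 (0.28 ± 0.25) and AC087481.3 in the DNA repair nuclease gene FAN1 (0.35 ± 0.24) also had non-overlapping higher values in shSPTLC2 libraries. For AC083799.1 the groups nearly touched, with 88 and 75 counts in shSPTLC2 libraries and 60 and 71 in shCON libraries. Over all genes tested, 31.3% were separated in this direction. AL161891.1, in the replication clamp loader gene RFC3, had 6.32 and 5.15 CPM in shSPTLC2 libraries and 7.42 and 5.42 CPM in shCON libraries, with a log2 fold change of -0.16 ± 0.24.

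The other called transcripts had lower levels. AC022211.3, in an intron of JPT1 (chromosome 17, 75138416 to 75141350, minus strand), had the largest fold change of the 14, with 2.31 and 2.67 CPM in shSPTLC2 libraries (34 and 41 counts), against 0.337 and 0.824 CPM in shCON libraries (5 and 12 counts). It changed by 2.09 ± 0.46 on the log2 scale (adjusted p = 0.0058, edgeR), and by 2.85 without shCON replicate 2. ASAP1-IT2 had 1.50 and 1.63 CPM in shSPTLC2 libraries (22 and 25 counts), against 0.405 and 0.480 CPM in shCON libraries (6 and 7 counts), and changed by 1.80 ± 0.50 (adjusted p = 0.019). Its host ASAP1 had 376 and 340 CPM in shSPTLC2 libraries and 329 and 350 CPM in shCON libraries. These shCON values rest on few reads. AC022211.3, ASAP1-IT2 and, described next, AL121832.3, AC011462.4 and AC005726.3 lay below the filter's minimum count of 10 in a shCON library. They passed the filter through the shSPTLC2 libraries, where they are high, so their fold changes and p-values lean that way.

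AL121832.3, in CABLES2, had 3.81 and 2.09 CPM in shSPTLC2 libraries, against 0.607 and 1.17 CPM in shCON libraries (log2 fold change 1.72 ± 0.44). AC011462.4, in TMEM91, had 2.18 and 2.35 CPM in shSPTLC2 libraries, against 0.944 and 0.549 CPM in shCON libraries (1.59 ± 0.43). Both sets of values were separated between the groups, as were those of every called transcript. AC005726.3 had 3.06 and 1.69 CPM in shSPTLC2 libraries, against 1.08 and 0.618 CPM in shCON libraries (1.47 ± 0.45), and its host, the coding gene AC005726.1, had 11.6 and 9.97 CPM in shSPTLC2 libraries, against 6.68 and 6.11 CPM in shCON libraries. AC010326.3, in the zinc finger gene ZNF814, had 3.67 and 2.54 CPM in shSPTLC2 libraries, against 0.944 and 1.37 CPM in shCON libraries (1.42 ± 0.38). It shares 288 bases with exons on the opposite strand, so its count is uncertain.

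N4BP2L2-IT2 had 7.14 and 6.06 CPM in shSPTLC2 libraries, against 3.64 and 2.54 CPM in shCON libraries, and changed by 1.09 ± 0.26 (adjusted p = 0.0094, edgeR). Its host N4BP2L2 had 140 and 139 CPM in shSPTLC2 libraries, against 81.5 and 83.3 CPM in shCON libraries, and was called higher at 0.76 ± 0.10. AL353150.1, in SHC3, which encodes a signalling adaptor of the Shc family, had 4.90 and 5.28 CPM in shSPTLC2 libraries, against 2.36 and 2.61 CPM in shCON libraries (1.03 ± 0.27), while SHC3 itself lay at 0.01 and was not called. In each of these pairs the transcript's groups did not overlap, as for every called transcript.

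**Figure D3:**
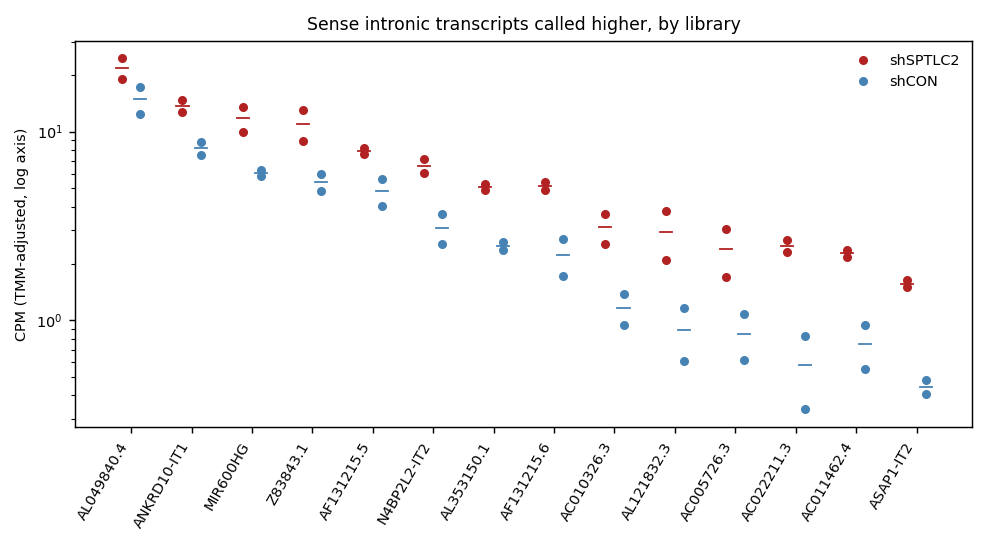
Level in CPM, on a log axis, of the 14 sense intronic transcripts called higher, with shSPTLC2 libraries to the left of shCON libraries for each transcript; every point is 1 library and short lines are group means. In all 14 both shSPTLC2 libraries lie above both shCON libraries, which follows largely from their choice as called higher. Over all genes tested, 31.3% were separated in that direction.

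Names ending in IT with a number mark 11 of the transcripts as annotated intronic transcripts of the gene whose symbol they carry. Of these, ANKRD10-IT1, N4BP2L2-IT2 and ASAP1-IT2 were called higher, none was called lower, beside 10.4% of all tested genes higher and 9.00% lower. The log2 fold changes of all 11 lay above 0, as did 69.2% of the 117 tested transcripts and 50.5% of all genes. They ran from 0.01 ± 0.33 for NPTN-IT1 to 1.80 for ASAP1-IT2. Those of NPTN-IT1, BACH1-IT1 (0.10 ± 0.41) and KCNQ5-IT1 (0.19 ± 0.52) lay within 1 SE of 0. HM13-IT1, inside the signal peptide peptidase gene HM13, had 1.70 and 2.22 CPM in shSPTLC2 libraries, against 0.944 and 0.961 CPM in shCON libraries. ACAP2-IT1 had 1.70 and 1.63 CPM in shSPTLC2 libraries, against 0.877 and 0.618 CPM in shCON libraries. Their groups did not overlap, and edgeR called neither (log2 fold changes 1.03 ± 0.41 and 1.14 ± 0.45), while limma on log2(FPKM + 0.1) called both higher (0.99 and 1.09). The host HM13 was itself called higher (0.31 ± 0.10, adjusted p = 0.047, edgeR), and the host ACAP2 was not called (-0.01 ± 0.12). KCNQ5-IT1, inside a potassium channel gene, overlapped between groups, with 1.70 and 0.652 CPM in shSPTLC2 libraries and 0.742 and 1.30 CPM in shCON libraries, while KCNQ5 was called lower (-0.42 ± 0.13).

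The transcripts at the low end, picked out after their values were seen, did not pass the test. AC008982.2, inside the splicing regulator gene HNRNPL, had the most negative log2 fold change, -0.97 ± 0.47. Its levels were 1.02 and 1.24 CPM in shSPTLC2 libraries and 1.21 and 3.23 CPM in shCON libraries, so a single shCON library was high and the groups overlapped. Without shCON replicate 1 this was called lower, at -1.51. HNRNPL itself was called lower, at -0.51 ± 0.11. AC036214.2, inside the mitochondrial ribosome gene MRPS28, had 1.50 and 1.89 CPM in shSPTLC2 libraries, against 2.63 and 2.61 CPM in shCON libraries (-0.63 ± 0.34), and MRPS28 was called lower at -0.81 ± 0.19. In both cases the host and the transcript lay on the same side of 0, but these cases were picked. AC108449.2 (-0.74 ± 0.43) and AC253536.3 (-0.72 ± 0.62) lay lower than AC036214.2 and were also not called. Over all 106 pairs with both tested, 60 had the same sign.

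All 14 calls depended on some libraries. Without shSPTLC2 replicate 1 only MIR600HG was still called of the 14, and without shSPTLC2 replicate 2 the calls of AC005726.3, AC010326.3, AL121832.3, ANKRD10-IT1, N4BP2L2-IT2 and Z83843.1 remained. Without shCON replicate 2, 9 remained and AC005726.3, AC011462.4, AF131215.5, AL049840.4 and ASAP1-IT2 were lost, and without shCON replicate 1 only ASAP1-IT2 was lost. All 14 kept a positive log2 fold change in these refits. AC107308.1, in the chromatin protein gene HMGA2 and picked out after its values were seen, was called higher in 5 alternatives but not in the fit reported. It had 3.54 and 5.28 CPM in shSPTLC2 libraries, and 2.70 and 0.755 CPM in shCON libraries, while HMGA2 was called lower (-0.41 ± 0.11).

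The 3′ ends of called transcripts are shown because a polyadenylation signal near the end, AATAAA or its variant ATTAAA in DNA letters, is a feature of RNAs with an end of their own. The last 120 bases of the annotated transcript are given 5′ to 3′ from GENCODE 29 on hg38, in lower case, with either hexamer in capitals where it falls in the last 50 bases. Of the called transcripts, 6 of 14 held one, and 63 of the 103 not called did. The ends of 3 that hold AATAAA are AL049840.4 at chr14:103697044-103697163 (plus strand), AC005726.3 at chr17:28601827-28601946 (minus) and AC011462.4 at chr19:41374300-41374419 (plus).
AL049840.4: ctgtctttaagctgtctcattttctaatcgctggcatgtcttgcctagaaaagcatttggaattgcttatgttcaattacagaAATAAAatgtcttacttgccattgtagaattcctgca
AC005726.3: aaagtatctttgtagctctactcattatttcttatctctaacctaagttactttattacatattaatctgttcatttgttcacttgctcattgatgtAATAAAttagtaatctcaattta
AC011462.4: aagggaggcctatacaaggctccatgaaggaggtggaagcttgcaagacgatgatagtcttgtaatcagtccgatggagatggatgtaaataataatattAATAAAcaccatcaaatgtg

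The ends of 4 called transcripts with neither hexamer there are ANKRD10-IT1 at chr13:110894639-110894758 (minus strand), Z83843.1 at chrX:74209976-74210095 (minus), N4BP2L2-IT2 at chr13:32504506-32504625 (minus) and AC010326.3 at chr19:57867038-57867157 (minus).
ANKRD10-IT1: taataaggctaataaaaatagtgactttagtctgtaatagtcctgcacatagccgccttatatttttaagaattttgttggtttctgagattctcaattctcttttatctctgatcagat
Z83843.1: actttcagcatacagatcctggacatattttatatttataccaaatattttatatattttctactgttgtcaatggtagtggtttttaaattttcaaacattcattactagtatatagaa
N4BP2L2-IT2: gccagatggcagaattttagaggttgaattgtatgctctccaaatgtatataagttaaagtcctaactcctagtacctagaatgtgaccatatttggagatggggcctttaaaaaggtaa
AC010326.3: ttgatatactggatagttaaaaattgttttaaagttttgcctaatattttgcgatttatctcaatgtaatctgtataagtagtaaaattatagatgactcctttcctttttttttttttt

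Over all 120 transcripts, 70 (58.3%) held AATAAA or ATTAAA in the last 50 bases, read on the transcript's own strand. The share was 45.1% (349 of 774) among sense intronic genes below the threshold, 56.5% (306 of 542) among lincRNA genes and 76.9% (9583 of 12459) among protein-coding genes with 40 counts or more. AATAAA alone was found in 43.3% of the 120 and 62.5% of the coding genes. A run of 8 A anywhere in the transcript, which could prime reverse transcription from inside an RNA, occurred in 29.2% of the 120, 18.2% of those below the threshold and 39.0% of coding genes. These are matches to letters, not measured sites, and longer transcripts have more room for a run. Median GC content was 42.0% in the 120 and 48.1% in coding genes, and 43.5% among the called and 41.9% among the tested transcripts not called.

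The 14 called transcripts were set beside their hosts. The host was called higher for 3 of them (ANKRD10, N4BP2L2 and AC005726.1), was not called for 9, and was called lower for 0, and 2 had no protein-coding host. Hosts of the 12 called transcripts with a tested host had a median log2 fold change of 0.25 (-0.01 to 0.77). For the 94 transcripts not called that had a tested host, the hosts' median was -0.03 (-0.81 to 0.96). Of the 96 hosts tested, 11 were higher and 12 lower, with a median log2 fold change of 0.005. Over the 106 pairs in which transcript and host were both tested, the median was 0.26 for transcripts and -0.01 for hosts, and 60 pairs had the same sign. Pearson's r between them was 0.31 and Spearman's rho 0.27, a description over pairs measured in the same libraries, some of which share a host.

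**Figure D4:**
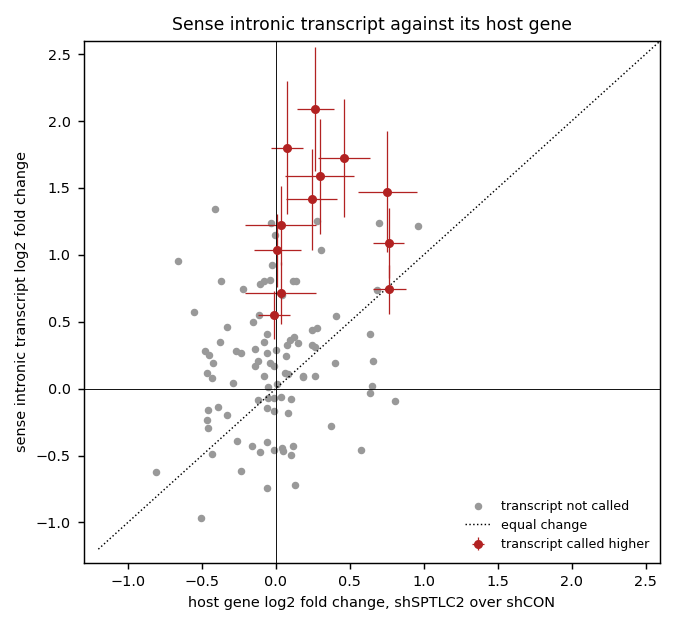
Log2 fold change (shSPTLC2 over shCON, edgeR) of each sense intronic transcript on the vertical axis against that of its host on the horizontal axis, for 106 pairs, with red points and lines of ± 1 SE for called transcripts; the dotted line marks equal change. Most points lie above 0 on the vertical axis, while hosts lie around 0, and Pearson's r is 0.31.

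Whether a transcript changed by a different amount from its host was tested on the ratio of the pair in each library. Among 108 transcripts with 40 counts in both genes, limma called 0 ratios higher and 0 lower after adjustment over all 352 nested pairs of any biotype, of which 0% were called. At an unadjusted p under 0.05 in limma, 16 transcripts had a higher ratio in shSPTLC2 cells and 1 a lower. Over all 352 nested pairs, which include these, 45 were higher and 21 lower at that threshold. For the transcripts, edgeR with the host as an offset gave the same counts and 0 calls. The ratio's log2 fold change was above 0 for 74 of the 108, with a median of 0.24. In the 244 nested pairs that hold none of these transcripts, 140 were above 0 and the median was 0.15.

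Some pairs are given as counts per host count, chosen after their values were seen. ASAP1-IT2 had 0.398% and 0.480% of the counts of ASAP1 in shSPTLC2 libraries, against 0.123% and 0.137% in shCON libraries, a ratio change of 1.67 ± 0.41 on the log2 scale (SE; adjusted p = 0.145, limma). AL353150.1 had 29.9% and 35.5% of the counts of SHC3 in shSPTLC2 libraries, against 14.1% and 18.3% in shCON libraries (1.01 ± 0.28, the same adjusted p). AC022211.3 had 1.27% and 1.50% of the counts of JPT1 in shSPTLC2 libraries, against 0.198% and 0.638% in shCON libraries (1.88 ± 0.59, adjusted p = 0.179). Groups were separated in all of these, and none passed the test. The largest ratio change was that of AC107308.1 relative to HMGA2, at 1.97 ± 0.65 (adjusted p = 0.186, limma), also not called. ANKRD10-IT1 kept its share of ANKRD10, at 13.3% and 12.9% in shSPTLC2 libraries and 12.3% and 14.5% in shCON libraries. Refits on 3 libraries gave some calls: AC107308.1 and AF131215.6 without shCON replicate 1, and AC022211.3 without shCON replicate 2, were called higher relative to their hosts.

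Transcripts that share a host did not always have like values. In JPT1, AC022211.3 was called at 2.09 while AC022211.1 had 2.31 and 1.82 CPM in shSPTLC2 libraries and 1.42 and 1.92 CPM in shCON libraries, with a log2 fold change of 0.31 ± 0.37. In KLC1, AL049840.4 was called at 0.55, whereas AL049840.3 lay at -0.07 ± 0.38 and AL049840.5 at -0.46 ± 0.38, both not called. In XKR6 both transcripts were called higher. Pairs in BIRC6, YARS2, SMIM7 and ZNF83 had values on both sides of 0, none of them called, although SMIM7 was itself called lower (-0.43 ± 0.14) and ZNF83 higher. The differences between transcripts of a host were not tested. AC012181.1 and AC012181.2 in HERPUD1 overlap each other, so reads may be shared between them.

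The genes that make, splice and clear intronic RNA were examined as 4 lists. In shSPTLC2 cells 2 of the 56 genes were higher and 12 lower, with a median log2 fold change of -0.14. Those are 3.57% and 21.4% of the lists, beside 10.4% and 9.00% of all 15313 tested genes, and the list counts that follow are to be read against the same shares. In cleavage and polyadenylation, 5 of 20 genes were lower and 0 higher (median -0.16). CDK12, a kinase of RNA polymerase II known to limit the use of intronic polyadenylation sites, had 104 and 112 CPM in shSPTLC2 libraries, against 153 and 183 CPM in shCON libraries, a log2 fold change of -0.64 ± 0.11 (adjusted p = 0.0015, edgeR). CSTF2, which binds the RNA downstream of the cleavage site, had 33.4 and 34.2 CPM in shSPTLC2 libraries, against 51.5 and 51.6 CPM in shCON libraries (-0.61 ± 0.12). FIP1L1 (-0.58 ± 0.15) and WDR33 (-0.44 ± 0.12), of the complex that recognises the AAUAAA signal, were lower, as was CSTF3 (-0.38 ± 0.13).

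Of 8 genes listed under lariat release and debranching, some of them general factors of the spliceosome, 4 were lower and 0 higher (median -0.28). Of all tested genes, 9.00% were lower and 10.4% higher. The gene of the debranching enzyme, DBR1, was not called (-0.22 ± 0.14). TFIP11, which works with the helicase DHX15 in taking the spent spliceosome apart, had 24.9 and 25.3 CPM in shSPTLC2 libraries, against 42.6 and 41.0 CPM in shCON libraries (-0.73 ± 0.12). DHX38 (-0.49 ± 0.11), DHX15 (-0.36 ± 0.10) and PRPF8 (-0.33 ± 0.11), also factors of the spliceosome, were lower. In the nuclear exosome and its adaptors, 1 of 20 was higher and 2 lower (median -0.01). ZFC3H1, which links polyadenylated nuclear RNA to the exosome, had 95.5 and 104 CPM in shSPTLC2 libraries, against 65.8 and 69.1 CPM in shCON libraries (0.57 ± 0.11), while the exosome subunits EXOSC7 (-0.44 ± 0.13) and EXOSC10 (-0.34 ± 0.11) were lower. In the U1 snRNP list of 8, PRPF39 was higher (0.57 ± 0.14) and SNRPC lower (-0.48 ± 0.13), with a median of 0.05. Of these 14 calls over the lists, 2 genes were called without shSPTLC2 replicate 1 and 4 without shSPTLC2 replicate 2, and limma on FPKM called 5. Messenger RNA levels say nothing of the amount or activity of these proteins, and no link between them and the intronic transcripts was tested.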

How the data were processed

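Total RNA of 2 shSPTLC2 and 2 shCON libraries of Hey-A8 cells was sequenced. The deposited table holds the authors' raw read counts for 58735 genes, and a second deposited table holds FPKM made by the authors, which equals each count over the gene's length in the table times 1 factor per library. Per the submitters' processing notes, which give no versions, the tools were HISAT2, SAMtools and StringTie and the build was hg38. All 58735 genes matched GENCODE 29 (Ensembl 94) in ID, position and strand, which gave exons and transcript sequences.

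In R 4.3.3, edgeR 4.0.16 tested the counts of all 4 libraries with filterByExpr (minimum count 10, minimum total 15), TMM scaling and a robust two-sided quasi-likelihood F test, and no covariate. P-values were adjusted by Benjamini-Hochberg over the whole set of tested genes, with calls at an adjusted p under 0.05. Each SE was the size of the log2 fold change divided by √F. Transcript-to-host ratios, with 0.5 counts added to each, were fitted with limma 3.58.1 over all nested pairs with 40 counts in both genes. DESeq2 1.42.0, limma on log2(FPKM + 0.1), other scalings and filters, a GC-content offset, a replicate block and refits without each library were alternatives. Scripts were tested on simulated data. Library totals ran from 14464784 to 15084966 counts. The common biological coefficient of variation was 10.1%. Within groups, 28.1% (shSPTLC2) and 36.8% (shCON) of genes differed at an exact binomial p under 0.05, so no library stands for another.

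The transcripts, the gene lists and the alternatives were chosen with earlier results of these data known. Genes were named by a rule: the 12 transcripts with the highest mean CPM, up to 12 called in each direction with the largest change, their hosts, 3 on each side of the count threshold, up to 4 called genes per list, SPTLC2 and ZDHHC15. Other names, such as CSTF3 and those of shared hosts, were added after their values were seen. No sequence from chromosome 8 is printed.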

Additional observations from a re-analysis of the deposited data

How the results depend on the processing

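All 14 called transcripts kept a positive log2 fold change in the 12 alternatives run on the gene test, while the number of tested transcripts above 0 ran from 74 to 83, so some that were not called changed sign. All 14 calls were kept with DESeq2 size factors, with library totals and without a filter on low counts, and 13 without the robust fit and with a GC-content offset. Library totals moved the median of all genes to 0.06 and the share of calls that were higher to 65.1%, against 53.6% with TMM. The GC-content offset turned that balance, with 1344 genes higher and 1538 lower (46.6% higher), and lowered the transcripts' median to 0.17. DESeq2's Wald test called 6 higher, with no adjusted p for 80 of the 117, beside 7.10% of all genes higher in that test. Limma on FPKM called 1397 genes (738 higher, 659 lower), with 4.82% of all genes higher. It called 11 transcripts, of which 7 are among the 14, 1 with its host called the same way, and 5 list genes. Replicate numbers did not pair the libraries (correlation of deviations -0.013), and the fit with them as a replicate block called 15 transcripts higher, 0 lower and 3307 genes. Leaving out 1 library at a time, which assumes that the lone library varies like the others, gave 640 to 4027 genes called (413 to 1977 higher, 227 to 2050 lower), against 2971 in all 4 libraries; without shCON replicate 1 lower calls also outnumbered higher ones (49.1% higher). Over these refits the transcripts called higher ranged from 1 to 15, lower 0 to 1 (AC008982.2), the transcripts with a host called the same way 0 to 7, list genes 2 to 19 and the transcripts' median 0.15 to 0.34. Ratios called higher ranged from 0 to 2 for transcripts and 0 to 10 over all nested pairs, and lower from 0 to 10 over all pairs. Of the tested transcripts, 99 overlap no exon of another gene, a choice made after seeing the data, and 12 of them were higher, 0 lower, with a median of 0.29. At a summed count of 20 for membership 14 were higher, and at 80 there were 13. The sizes of these sets are not given here, so the counts are not read as shares or as a stable rate. The median SE was 0.49 for tested transcripts below 100 counts and 0.29 for those with more. The causes of these differences were not tested.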
